A study of Mus musculus with 141 samples.

Results

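Mast cells are tissue-resident immune cells that develop from bone marrow precursors and mature in connective tissue, where stem cell factor acting on the receptor KIT keeps them alive. Their granules store proteases bound to heparin (carboxypeptidase A3, the chymases and the tryptases) together with histamine and, in rodents, serotonin. Cross-linking of IgE on the high-affinity IgE receptor releases them. In adipose tissue they are a minor population that lies along vessels and nerves. In RNA from a whole fat pad they are seen best through genes that other cells use little.

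The genes described here are 9 transcripts of that programme, chosen by name: the granule proteases *Cpa3*, *Cma1*, *Mcpt4* and *Tpsb2*, the receptor genes *Kit*, *Fcer1a* and *Ms4a2*, and the amine-synthesis genes *Hdc* and *Tph1*. The list does not settle which cells a gene's RNA came from. In female libraries *Kit* and *Tph1* rose with mammary epithelial markers (Pearson's r = 0.73 and 0.56). Their r with *Cpa3* there was only 0.08 and 0.23. All 9 were found among the 36558 genes of the deposited tables, and all 9 passed the filter on low counts in each comparison. The samples are bulk RNA-seq libraries of inguinal white adipose tissue (iWAT), a subcutaneous fat pad, from inbred mice of the Hybrid Mouse Diversity Panel. There were 67 libraries labelled female and 74 labelled male, from 82 strains, with 59 strains present in both sexes and 1 library per strain and sex. All mice ate chow until 8 weeks of age and then a diet rich in fat and sucrose (HF/HS) for another 8 weeks, and were fasted for 4 h before collection, so there was no control diet.

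By strain name the panel held 5 families. The BXD strains, recombinants of C57BL/6J and DBA/2J, gave 32 female and 34 male libraries. The other inbred strains gave 21 and 23, the AXB/BXA recombinants of A/J and C57BL/6J gave 9 and 11, the BXH strains 2 and 3, and the CXB strains 3 and 3. Among the BXD strains, BXD24/TyJ-Cep290<rd16>/J carries by its name the rd16 allele of *Cep290*, and it was present in both sexes. The other inbred strain BTBR T<+> tf/J, whose name gives T<+> and tf, was also present in both. Library totals ran from 6269154 to 39543043 estimated counts in females and from 11747373 to 78562648 in males. In 3 libraries Y-linked expression went against the label. The libraries labelled female of BXD34/TyJ (the shallowest of all) and BXD69/RwwJ carried male-like levels, and the library labelled male of NZW/LacJ carried female-like levels. Only NZW/LacJ was a matched strain, and the counts of genes called and the ranges of levels were repeated without these libraries, which left 65 female and 73 male ones. Adipocyte markers (*Adipoq*, *Plin1*, *Plin4*, *Cidec*, *Fabp4*) were present in every library, with a summed level of 5445 to 61550 TPM in females and 12048 to 63720 TPM in males.

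The stretches of DNA in front of these genes are shown first, because 6 of the 9 genes varied together across strains. The sequences are the 250 bases before the transcription start, 5′ to 3′ on the gene's own strand, from RefSeq on GRCm38.p6. Capitals mark GATAA, a form of the core letters bound by GATA factors (GATA1 and GATA2 act in mast cells), and TTATC, the same letters read on the other strand. Windows were given for 8 of the 9 genes, all but *Tpsb2*, and at least 1 copy was present in the windows of 5 of them, *Cpa3*, *Cma1*, *Mcpt4*, *Fcer1a* and *Ms4a2*. None of the windows of *Kit*, *Hdc* and *Tph1* held GATAA or TTATC. Among all 32851 windows of the same length, 22.6% held either. The form GATAG, which GATA factors can also bind, was not searched for, and windows of *Hdc* and *Tph1* do hold it. The split between the genes therefore applies to GATAA alone. The window of *Kit* (chr5:75574737-75574986, plus strand) is printed for contrast. The others lie at chr3:20242182-20242431, chr14:55944676-55944925, chr14:56062311-56062560, chr1:173227230-173227479 and chr19:11623720-11623969, all on the minus strand and in the order of the lines.
Cpa3: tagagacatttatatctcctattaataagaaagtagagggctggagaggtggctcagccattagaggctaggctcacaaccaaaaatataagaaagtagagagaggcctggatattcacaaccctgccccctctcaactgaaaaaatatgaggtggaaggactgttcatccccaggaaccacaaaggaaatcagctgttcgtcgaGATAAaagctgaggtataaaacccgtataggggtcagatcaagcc
Cma1: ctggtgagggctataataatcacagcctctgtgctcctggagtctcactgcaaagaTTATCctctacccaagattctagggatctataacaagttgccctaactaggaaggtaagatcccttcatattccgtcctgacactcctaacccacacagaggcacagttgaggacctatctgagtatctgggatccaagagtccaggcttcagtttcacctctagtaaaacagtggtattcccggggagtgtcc
Mcpt4: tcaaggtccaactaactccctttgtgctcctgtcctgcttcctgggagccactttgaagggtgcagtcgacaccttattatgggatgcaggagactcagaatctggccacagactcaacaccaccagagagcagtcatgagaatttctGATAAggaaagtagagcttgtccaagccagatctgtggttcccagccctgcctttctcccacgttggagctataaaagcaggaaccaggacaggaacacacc
Fcer1a: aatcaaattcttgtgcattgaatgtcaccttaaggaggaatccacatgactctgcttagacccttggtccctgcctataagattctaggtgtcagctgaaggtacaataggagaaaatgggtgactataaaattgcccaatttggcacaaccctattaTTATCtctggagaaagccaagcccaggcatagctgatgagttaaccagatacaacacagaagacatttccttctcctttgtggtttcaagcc
Ms4a2: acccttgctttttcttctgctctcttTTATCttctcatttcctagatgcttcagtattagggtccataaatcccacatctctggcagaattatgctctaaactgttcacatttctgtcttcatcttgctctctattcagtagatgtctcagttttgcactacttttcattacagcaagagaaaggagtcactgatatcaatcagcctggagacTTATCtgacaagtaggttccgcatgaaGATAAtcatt
Kit: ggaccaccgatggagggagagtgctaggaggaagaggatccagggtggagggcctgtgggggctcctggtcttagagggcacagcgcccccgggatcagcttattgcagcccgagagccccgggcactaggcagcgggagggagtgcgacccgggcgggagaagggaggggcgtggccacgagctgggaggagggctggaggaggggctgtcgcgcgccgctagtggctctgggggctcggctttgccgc
A match is a description of the letters and not of a bound site, and its part in the shared variation was not tested. The copy in the *Cpa3* window began 45 bases before the start. *Ms4a2* held 3 copies, the nearest of which began 10 bases before the start.

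The granule protease genes were present in every library. *Mcpt4* (chr14:56059629-56062313, GRCm38 like all gene positions here) encodes the mouse counterpart of human chymase in connective tissue mast cells. Its level ranged from 4.27 TPM (a unit in which the authors scaled each library for transcript length and depth) through a median of 27.1 to 94.8 in females, and from 1.67 through 13.99 to 64.01 in males. *Cma1*, a chymase gene of the same cluster (chr14:55941451-55944675), ranged from 3.22 through 22.1 to 89.02 TPM in females and from 1.63 through 10.5 to 55.0 in males. *Cpa3*, which encodes carboxypeptidase A3 (chr3:20215620-20242181), ranged from 1.51 through 15.5 to 64.9 TPM in females and from 0.557 through 8.09 to 42.4 in males. The ranges of the sexes overlapped for each of these genes, yet only 16 of the 74 male libraries exceeded the female median of *Cpa3*. *Tpsb2*, a tryptase gene (chr17:25366305-25369098), ranged from 1.55 through 10.6 to 45.95 TPM in females and from 0.695 through 5.90 to 20.3 in males.

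Both genes of the IgE receptor were low. *Fcer1a* (chr1:173221284-173227214) encodes the chain that binds IgE, and *Ms4a2* (chr19:11615523-11623719) the beta chain that amplifies its signal. *Fcer1a* ranged from 0 through 0.999 to 7.25 TPM in females and from 0 through 0.491 to 5.49 in males, with 16 libraries at or under 3 counts. *Ms4a2* ranged from 0.0465 through 0.807 to 3.11 TPM in females and from 0 through 0.475 to 3.52 in males, with 5 libraries at or under 3 counts. At the median depth 3 counts correspond to 0.0992 CPM, counts scaled to a common library size, so a listed 0 does not show absence. *Kit* (chr5:75574916-75656722), the stem cell factor receptor, was by contrast the most abundant member in females, from 2.13 through 31.4 to 121.99 TPM. That minimum is the BXD34/TyJ library with its high Y-linked level. Without the libraries that went against their label the lowest female level was 11.2 TPM. In males it ranged from 2.74 through 9.93 to 31.9 TPM, and only 1 male library, that of NZW/LacJ with its female-like Y-linked level, lay above the female median.

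The amine-synthesis genes differed in kind. *Hdc* (chr2:126593667-126619299) encodes histidine decarboxylase, which makes histamine, and ranged from 0.0551 through 2.07 to 7.05 TPM in females and from 0.583 through 1.73 to 5.44 in males. The female minimum is again the BXD34/TyJ library, and the lowest level without it was 0.645 TPM. The ranges of the sexes overlapped almost fully, with 28 male libraries above the female median. *Tph1* (chr7:46644641-46672537) encodes the tryptophan hydroxylase that starts serotonin synthesis outside the brain. It ranged from 0.110 through 3.02 to 94.2 TPM in females and from 0.0857 through 0.524 to 3.16 in males, with 1 male library above the female median, that of BXD66/RwwJ. The female maximum was SM/J, and the next female library, that of SWR/J, stood at 26.8 TPM.

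Ranked by median TPM, the female order was *Kit*, *Mcpt4*, *Cma1*, *Cpa3*, *Tpsb2*, *Tph1*, *Hdc*, *Fcer1a*, *Ms4a2*. The male order was *Mcpt4*, *Cma1*, *Kit*, *Cpa3*, *Tpsb2*, *Hdc*, *Tph1*, *Fcer1a*, *Ms4a2*. Neighbours were compared by the log2 ratio of their levels in each library (a pseudocount of 0.1 TPM). In females the mean ratio exceeded its SD only for *Cma1* over *Cpa3*, *Cpa3* over *Tpsb2* and *Tpsb2* over *Tph1*, and in males only for *Tpsb2* over *Hdc* and *Hdc* over *Tph1*. All other neighbours differed by less than their spread over libraries.

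**Figure D1:**
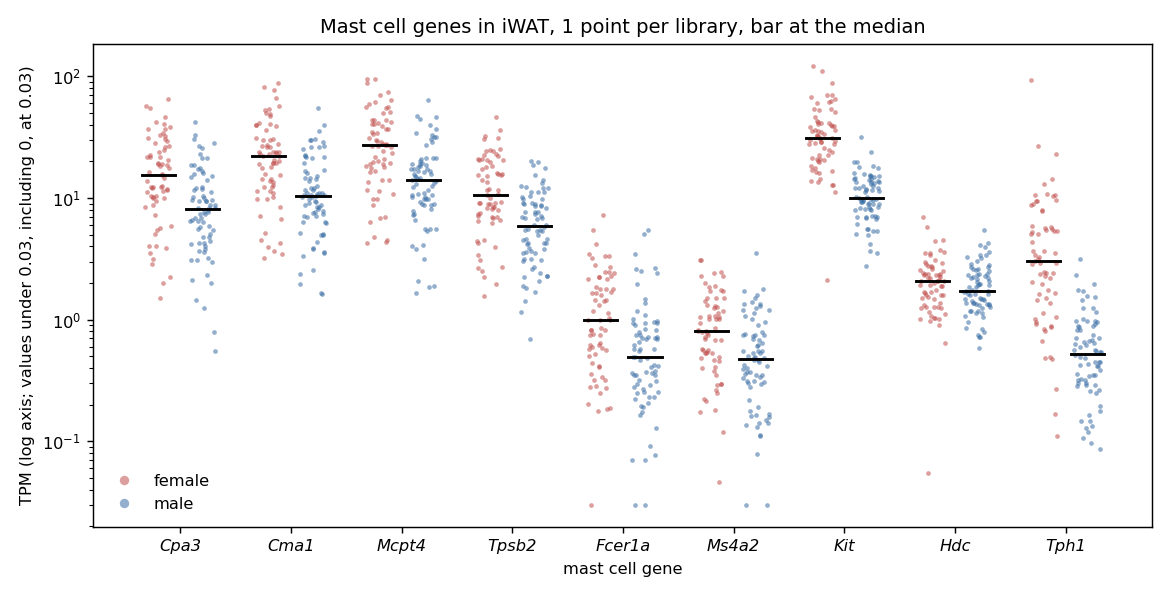
TPM (log axis) of the 9 mast cell genes in each of 67 female (red) and 74 male (blue) iWAT libraries, with a black bar at the median of each sex; values under 0.03, 0 included, are drawn at 0.03. The female median exceeds the male median for every gene, least for *Hdc* (2.07 against 1.73) and most for *Tph1* (3.02 against 0.524).

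The first comparison asked whether expression differed between the sexes once the strain was held fixed. Of the 9 genes, 8 were higher in females and 1 did not pass the test, against 28.4% of all 16765 genes tested that were called higher in females and 29.8% called lower. With library totals the split of all genes was 43.9% higher and 16.7% lower, and with limma on log2(TPM + 1) 31.8% and 17.1%. The 4 protease genes and both IgE receptor genes moved by similar amounts, with log2FC (female vs. male) between 0.80 and 0.94, and *Kit* and *Tph1* moved further. Their median log2FC was 0.90, beside 0.01 over all genes tested. In bulk tissue, fewer cells of a type and less RNA per cell cannot be told apart.

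Among the proteases, *Cpa3* averaged 15.1 ± 10.3 CPM in females and 8.77 ± 7.02 CPM in males (mean ± SD, n = 59 strains each). Its log2FC was 0.84 with an SE of 0.15 and an adjusted p = 3.76e-06 (quasi-likelihood test of edgeR, Benjamini-Hochberg over all genes tested), and the female library was the higher in 45 of 59 strains. *Cma1* rose by a log2FC of 0.94 (SE 0.14, adjusted p = 3.08e-08) and was higher in the female of 48 strains. *Mcpt4* showed 0.90 (SE 0.13, adjusted p = 6.25e-08) and *Tpsb2* 0.83 (SE 0.14, adjusted p = 6.26e-07). For the receptor chains, *Fcer1a* showed 0.92 (SE 0.18, adjusted p = 1.10e-05) and *Ms4a2* 0.80 (SE 0.14, adjusted p = 2.20e-06), with the female higher in 46 and 47 strains.

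*Kit* averaged 93.7 ± 54.5 CPM in females and 28.5 ± 12.5 CPM in males. Its log2FC was 1.64 (SE 0.12, adjusted p = 4.31e-18), a 3.11-fold difference, and the female was higher in 56 of 59 strains. *Tph1* averaged 9.62 ± 19.3 CPM in females and 0.672 ± 0.799 CPM in males. Its log2FC of 3.18 (SE 0.31, adjusted p = 1.04e-13) was exceeded by 253 of the 16765 genes tested, and the female was higher in 55 strains. *Hdc* averaged 3.45 ± 1.48 CPM in females and 3.21 ± 1.41 CPM in males, and its log2FC of 0.12 (SE 0.06, adjusted p = 0.112) did not pass. *Hdc* passed when libraries were scaled by their totals (log2FC 0.23, adjusted p = 0.00246) and with limma on log2(TPM + 1) (0.14, adjusted p = 0.0327), so its call depends on the scaling. The 8 calls held in each of the 10 or 11 alternatives that could test the gene. On log2(TPM + 1) the low genes *Fcer1a* and *Ms4a2* gave smaller values, down to 0.43 and 0.32, and *Tph1* 1.59.

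The companion genes, 19 transcripts known from mast cells but in part shared with other cells, did not move as one. Of 17 that could be tested, 7 were higher in females, 6 were lower and 4 did not pass, with a median log2FC of 0.01. The higher ones included *Slc18a2* (0.82, adjusted p = 1.07e-06), the vesicular transporter that loads histamine and serotonin into granules, and *Slc6a4* (0.45, adjusted p = 0.00158), the serotonin transporter. *Mrgprb2* (0.63, adjusted p = 0.000442), the receptor for IgE-independent activation of connective tissue mast cells, and its neighbour *Mrgprb1* (0.76, adjusted p = 3.10e-06) also rose. So did *Rab27b* (1.54, adjusted p = 3.98e-17), a granule-docking GTPase also used by epithelial cells, *Gata1* (0.70, adjusted p = 0.0429), an erythroid and mast cell transcription factor, and the adenosine receptor gene *Adora3* (0.20, adjusted p = 0.0315). The lower ones were *Ltc4s*, *Hpgds* and *Alox5*, enzymes of leukotriene and prostaglandin D2 synthesis (log2FC −0.74, −0.42 and −0.38), *Fcer1g*, the signalling chain shared with Fc receptors of macrophages (−0.37), and the transcription factor genes *Gata2* (−0.30) and *Mitf* (−0.15). The calls of *Gata1*, *Adora3*, *Mitf* and *Alox5* were each lost in at least 2 alternatives. The tryptase gene *Tpsab1* (0.25, adjusted p = 0.372), *Srgn* (−0.14), *Ndst2* (0.01) and *Il1rl1* (−0.13) did not pass, and *Tpsg1* and *Ctsg* were too low to test between the sexes.

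Growth factor and cytokine genes that act on mast cells came next. *Kitl*, which encodes stem cell factor, was higher in females (log2FC 0.27, adjusted p = 0.000163), as was *Il33*, an alarmin that activates mast cells (0.85, adjusted p = 0.000138). *Tgfb1* was lower by a small amount (−0.17, adjusted p = 0.0297) that did not hold in 5 alternatives. *Il3*, *Il4*, *Il9* and *Il13* were too low to test, and *Il3* was listed at 0 in every library. Of 12 genes of IgE receptor signalling, only *Plcg2* was higher (0.52), *Gab2* (−0.56) and *Plcg1* (−0.21) were lower, and 9 did not pass. Among 9 tested genes for amine receptors and breakdown, 3 were higher and 5 lower. The higher ones were *Aoc1*, which encodes a histamine-degrading amine oxidase (0.87, adjusted p = 0.0345), the serotonin receptor gene *Htr2a* (0.35, adjusted p = 0.00838) and *Ddc*, whose enzyme completes serotonin synthesis (0.25, adjusted p = 0.0218). The histamine-degrading methyltransferase gene *Hnmt* (−0.44), the serotonin receptor gene *Htr2b* (−0.86) and the histamine receptor gene *Hrh2* (−0.31) fell.

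**Figure D2:**
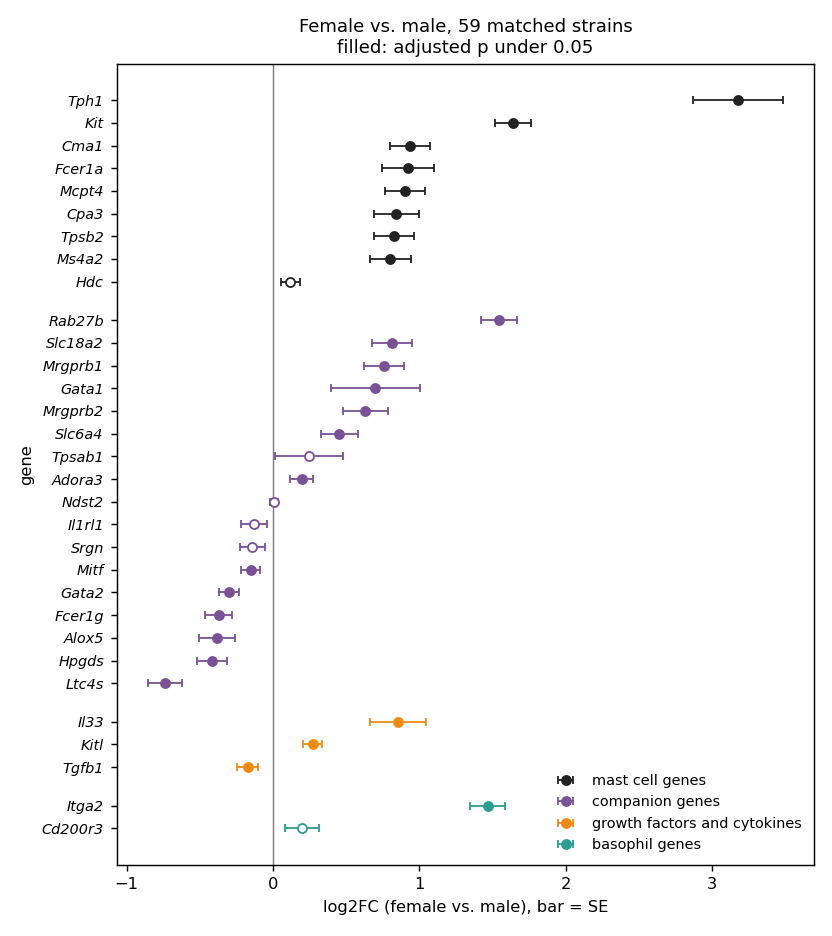
log2FC (female vs. male) with its SE for the mast cell genes (black), companion genes (purple), growth factors and cytokines (orange) and basophil genes (green) in 59 matched strains; filled points have an adjusted p under 0.05. The mast cell genes other than *Hdc* lie between 0.80 and 3.18, and the companion genes spread from −0.74 to 1.54.

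Markers of other cell types moved with sex as well. All 9 mammary epithelial markers were higher in females, with a median log2FC of 6.90, and their summed level ran from 1.70 through 582 to 4572 TPM in females and from 0.380 through 3.33 to 554 TPM in males. The female minimum is BXD69/RwwJ and the male maximum NZW/LacJ, both with Y-linked levels against their label. Without the 3 such libraries the sum ran from 98.1 to 4572 TPM in females and from 0.380 to 285 TPM in males, and no male library reached the female median. All 5 adipocyte markers were lower in females (median log2FC −0.61), as were all 5 macrophage markers (−0.46). Basophils share *Fcer1a*, *Ms4a2* and *Hdc* with mast cells. Their protease genes *Mcpt8* and *Prss34* reached at most 0.313 and 0.906 TPM, and *Cd200r3* (log2FC 0.20, adjusted p = 0.139) did not pass, although it did with library totals (0.30, adjusted p = 0.0368) and over all libraries with no replicate block (1.55, adjusted p = 6.33e-07). By contrast, *Itga2*, which epithelial cells and platelets also express, was higher (1.47). None of 4 tested melanocyte markers, relevant because melanocytes express *Kit*, passed the test.

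A score of mammary content, the mean log2 CPM of the 9 mammary markers, was then compared with each gene within 1 sex, a comparison added after the data had been seen. In the 67 female libraries *Kit* rose with the score (Pearson's r = 0.73, Spearman's rho = 0.79, adjusted p = 0.00012 and 9e-05 over 36 relations, permutation tests with 100000 resamples). The 2 libraries farthest from the median score were BXD69/RwwJ and BXD34/TyJ, those with male-like Y-linked levels, and without them r was 0.79. *Tph1* rose with it too (r = 0.56, rho = 0.59, adjusted p = 0.00012 and 9e-05), and r was 0.62 without the 2 libraries. For the protease and IgE receptor genes r with the mammary score lay between −0.03 and 0.18 in females, and none passed. Without the 2 libraries farthest from the median score these r lay between 0.10 and 0.25. In the 74 male libraries *Tph1* gave r = 0.46 (adjusted p = 0.00266), which fell to 0.16 without the 2 libraries farthest from the median, and *Kit* gave 0.24 with and −0.08 without them.

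The adipocyte score ran the other way. In females it correlated with *Tph1* at r = −0.45 (adjusted p = 0.00063) and with *Kit* at −0.32 (adjusted p = 0.0293). In males its strongest relation was with *Ms4a2*, at r = −0.57 (adjusted p = 0.00012), and 6 others passed by r. These were *Tph1* (−0.40, adjusted p = 0.00408), *Mcpt4* (−0.35, adjusted p = 0.0136), *Cma1* (−0.33, adjusted p = 0.0167), *Kit* (−0.31, adjusted p = 0.0293), *Fcer1a* (−0.29, adjusted p = 0.0439) and *Cpa3* (−0.28, adjusted p = 0.0447). By rank (Spearman's rho, permutation tests) *Kit*, *Fcer1a* and *Cpa3* did not pass in males (adjusted p = 0.169, 0.169 and 0.104). In females *Mcpt4* passed by rank (rho = −0.32, adjusted p = 0.0327) but not by r. *Hdc* passed with neither score in either sex. The part of mammary and adipocyte content in the sex differences was not tested.

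**Figure D3:**
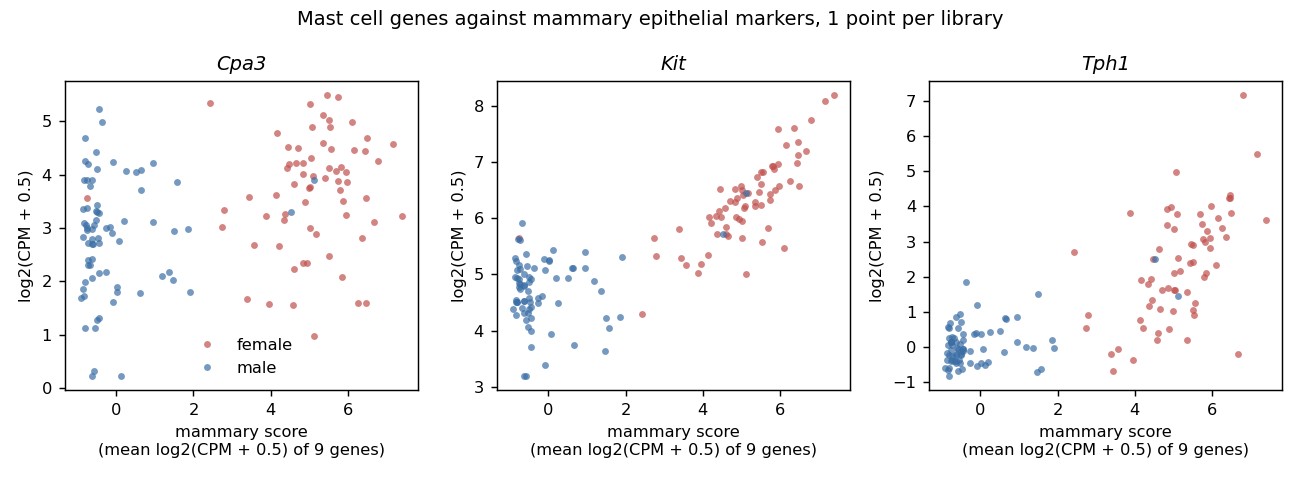
log2(CPM + 0.5) of *Cpa3*, *Kit* and *Tph1* against the mammary score (mean log2(CPM + 0.5) of 9 mammary epithelial markers), 1 point per library, females red and males blue. *Kit* and *Tph1* climb with the score among females (r = 0.73 and 0.56), while the relation of *Cpa3* does not pass (r = 0.11). Without BXD69/RwwJ and BXD34/TyJ, which carry male-like Y-linked levels, r is 0.79, 0.62 and 0.20 in that order.

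The mammary score was higher in the female library of 58 of 59 strains. The exception was PL/J, with a female minus male difference of −0.06 on the log2 CPM scale. Its mammary marker sum was 582 TPM in the female and 285 TPM in the male. Its adipocyte marker sum was 44188 and 29537 TPM. In TPM *Cpa3* stood at 21.9 in the female against 7.69 in the male, and *Cma1* at 28.1 against 7.54. *Kit* stood at 25.7 against 18.1 TPM and *Tph1* at 3.26 against 2.32. On the log2 CPM scale of the score the differences were 0.91 for *Cpa3*, 1.51 for *Cma1*, 0.29 for *Kit* and −0.005 for *Tph1*. These are single pairs of mice with no replicate.

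Across strains the 6 protease and IgE receptor genes formed a tight group. In females *Cpa3* correlated with *Mcpt4* at r = 0.97, with *Tpsb2* at 0.96, with *Cma1* at 0.92, with *Ms4a2* at 0.88 and with *Fcer1a* at 0.82 (each with a permutation p of 1e-05, the smallest that 100000 resamples can give, and an adjusted p = 1.45e-05 over 16 relations). In males the values were 0.97, 0.92, 0.90, 0.77 and 0.72, with the same adjusted p. Over the 15 pairs of these 6 genes r ranged from 0.76 to 0.97 in females and from 0.67 to 0.97 in males. Without the 2 libraries farthest from the *Cpa3* median, the lowest of these 10 values with *Cpa3* was 0.73.

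*Kit* and *Hdc* stood outside that group. In females *Cpa3* correlated with *Kit* at r = 0.08 (adjusted p = 0.557) and with *Hdc* at 0.03 (adjusted p = 0.797). In males the values were 0.25 (adjusted p = 0.0461) and 0.20 (adjusted p = 0.0957), and that of *Kit* did not pass by rank (rho = 0.15) or without NZW/LacJ. *Tph1* differed in value between the sexes, at r = 0.23 in females (adjusted p = 0.0791) and 0.58 in males (adjusted p = 1.45e-05), a difference that was not tested. On the log2(TPM + 0.1) scale all 16 relations passed, with *Kit*, *Hdc* and *Tph1* at 0.24, 0.28 and 0.37 in females. The libraries share depth and scaling, so r describes shared variation only.

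**Figure D4:**
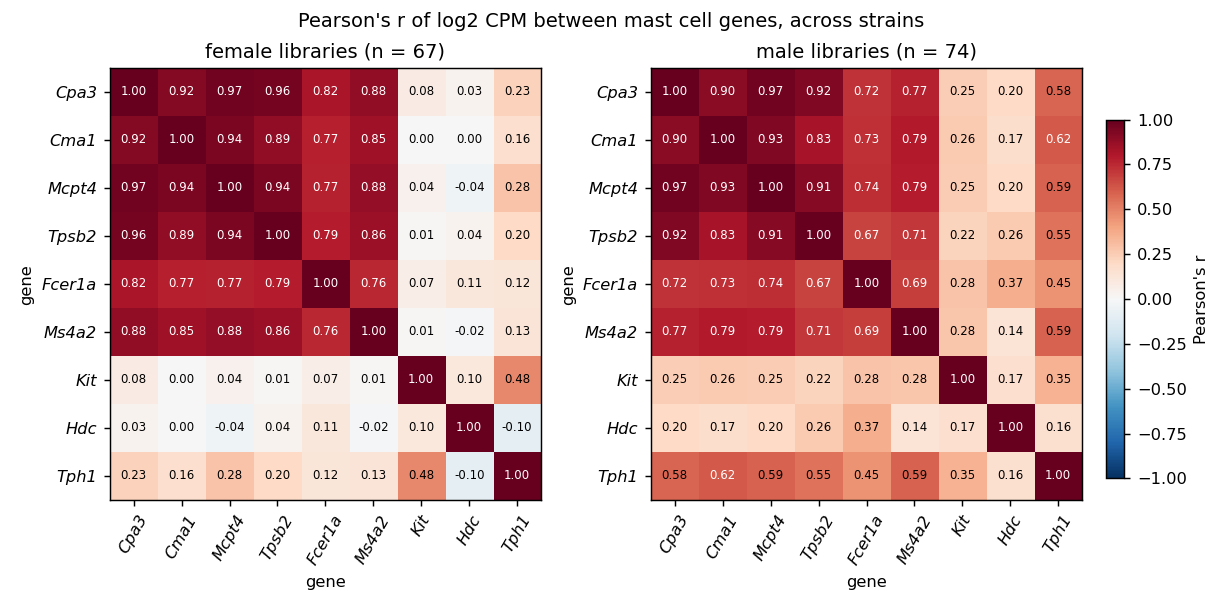
Pearson's r of log2 CPM between each pair of mast cell genes across 67 female (left) and 74 male (right) libraries, on a colour scale from −1 to 1. The block of *Cpa3*, *Cma1*, *Mcpt4*, *Tpsb2*, *Fcer1a* and *Ms4a2* holds r of 0.67 or more in both sexes, and the rows of *Kit* and *Hdc* hold r of 0.37 or less with these genes.

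The genes whose pattern was most like the mean log2 CPM of the 9 members were ranked among 16239 others by the mean of Pearson's r over the sexes. The first 5 were *Mrgprb1* (0.91), *Slc18a2* (0.86), *Mrgprb2* (0.85), *Mrgprx2* (0.82) and *Slc6a4* (0.77), each low in level with medians under 1.5 TPM. *Cyp11a1* followed at 0.74. After it the likeness fell to 0.59 for *Sema3d* and then declined slowly through *AW551984*, *Gfra2*, *Scg3*, *Hs6st2*, *Larp6*, *Robo1* and *Hmcn1* to 0.55 for *Ror1*. Of the members themselves, *Mcpt4* and *Cpa3* were closest to the mean of which they are part (r of 0.93 for both in females, and 0.96 and 0.95 in males), and *Hdc* was farthest (0.10 and 0.33).

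How far a level went with the strain was asked by comparing the female and male library of the same strain, which come from separate mice. Over 59 strains *Hdc* gave the closest relation, with r = 0.64 and rho = 0.59 (adjusted p = 4.5e-05 and 0.00018 over the 9 genes). *Ms4a2* followed at r = 0.54, *Cma1* at 0.52, *Mcpt4* at 0.51, *Cpa3* at 0.50, and *Tpsb2* and *Fcer1a* at 0.43, with adjusted p of at most 0.000951 for these 6 genes. *Kit* (r = 0.04, adjusted p = 0.74) and *Tph1* (−0.07, adjusted p = 0.698) did not pass. The median r over all 16765 genes tested was 0.30.

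Within the 26 BXD strains r reached 0.85 for *Hdc* and 0.71 for *Fcer1a*. Within the 33 other strains the values were 0.50 and 0.16, and the calls of *Fcer1a* (adjusted p = 0.455) and *Ms4a2* (r = 0.36, adjusted p = 0.0619) were lost there. Leaving out the 2 strains farthest from the median left r between 0.35 and 0.58 for the 7 genes.

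**Figure D5:**
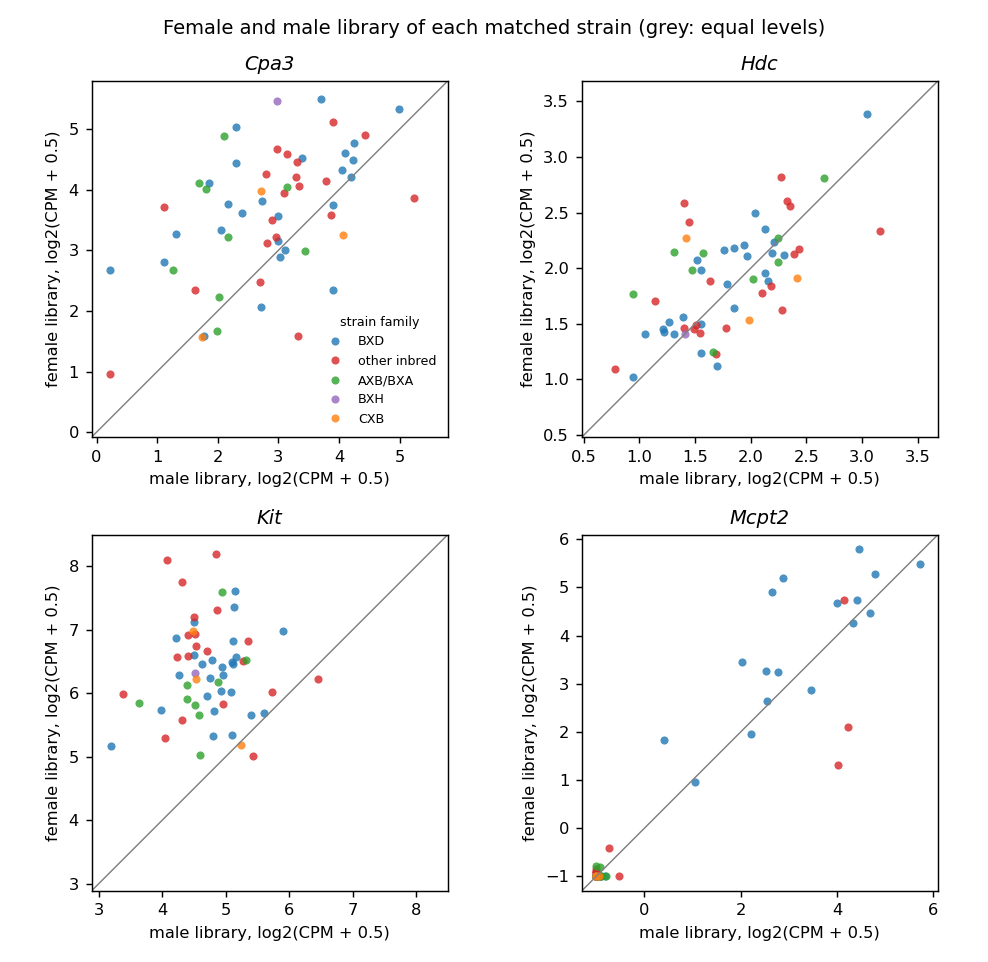
log2(CPM + 0.5) of the female against the male library of each of 59 matched strains for *Cpa3*, *Hdc*, *Kit* and the mucosal protease gene *Mcpt2*, coloured by strain family, with a grey line at equal levels. *Cpa3* and *Hdc* rise together in both sexes (r = 0.50 and 0.64), with *Cpa3* mostly above the line (45 of 59 strains), *Kit* lies mostly above it (56 strains) with r = 0.04, and *Mcpt2* splits into strains at the floor and strains well above it.

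Some strains stood at the ends of the range for several genes. The 6 protease and IgE receptor genes varied together, so these counts over genes are not independent observations. BXD66/RwwJ was among the 3 highest strains for 6 of the 9 genes in females and for 7 in males, with *Cpa3* at 55.5 and 42.4 TPM. The female library of BXH8/TyJ was among the 3 highest for 5 genes and held the maxima of *Cpa3* (64.9 TPM) and *Fcer1a* (7.25 TPM), while the male library of that strain stood at 10.05 and 0.957 TPM. At the low end, FVB/NJ was among the 3 lowest for 6 genes in females and 3 in males, with *Cpa3* at 1.51 and 1.24 TPM and *Mcpt4* at 4.33 and 1.87 TPM. CXB11/HiAJ was among the 3 lowest for 6 genes in females and 5 in males. BXD12/TyJ was among them for 6 genes in males, where *Cpa3* was 0.557 TPM, but for only 1 in females. *Kit* had other leaders in females, KK/HlJ at 121.99 TPM, SWR/J at 110 and SM/J at 88.7. With 1 library per strain and sex, the value of a strain has no replicate within a sex.

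The sex difference was then set against the strain family. In the interaction test over the 59 matched strains no mast cell gene was called, and neither was any of the 16765 genes (0%; 314 had an unadjusted p under 0.05, and DESeq2 called 1). For *Cpa3* the sex difference in BXD strains exceeded that in other strains by 0.06 on the log2 scale (95% interval −0.55 to 0.66), and for *Tph1* it was smaller by 1.01 (interval −2.15 to 0.12). Intervals of this width do not show that the sex differences were alike.

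Between the BXD and the other inbred strains, 1 of the 9 genes was called in female libraries and none in male libraries. The share of all genes called was 12.4% in females and 8.63% in males (2.81% higher and 5.82% lower). Without the BXD34/TyJ and BXD69/RwwJ libraries the female share was 6.83% (2.6% higher and 4.23% lower). The called gene was *Tph1*, lower in BXD females (log2FC −1.52, SE 0.47, adjusted p = 0.0238), with a median of 2.65 TPM in 32 BXD libraries and 5.33 TPM in 21 other inbred libraries. That call rested on 1 library. Without SM/J the log2FC was −0.77 (adjusted p = 0.276), and each of the other 52 fits that left out 1 library kept it. It was also lost with limma on log2(TPM + 1) (adjusted p = 0.322). For *Cpa3* the log2FC was 0.10 in females (interval −0.45 to 0.65) and −0.10 in males (−0.68 to 0.48). Over all 5 families no member passed the F test in females (8.73% of genes did; the lowest adjusted p was 0.0755, for *Fcer1a*) or in males (13.1%; 0.116, for *Cma1*).

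By the F test over families, 3 related protease genes outside the 9, *Mcpt2*, *Tpsab1* and *Ctsg*, passed in both sexes. Of all genes tested, 8.73% passed in females and 13.1% in males. Between BXD and other inbred strains only *Tpsab1* of the 3 passed in both sexes. *Mcpt2*, a chymase of mucosal mast cells in the same chromosome 14 cluster as *Cma1* and *Mcpt4*, was near 0 in most strains and as high as *Mcpt4* in others. In C57BL/6J it stood at 0.0592 TPM in the female and 0 in the male, and in DBA/2J, the other BXD parent, at 5.89 and 31.6 TPM. Of the 26 BXD strains with both sexes, 17 had over 3 counts in both libraries, 9 in neither and 0 in only 1 of them. None of the 9 matched AXB/BXA, 3 CXB or 1 BXH strains had over 3 counts in both. Among the 20 other inbred strains, BTBR T<+> tf/J (51.7 and 28.7 TPM), C57BLKS/J (2.70 and 29.1) and DBA/2J did.

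In the 48 libraries with over 50 *Mcpt2* counts, the ratio of *Mcpt2* to *Mcpt4* TPM had a median of 0.971 and ranged from 0.238 to 1.52. BXD66/RwwJ and BXD55/RwwJ, at the top for *Mcpt4*, reached 83.2 and 95.2 TPM of *Mcpt2* in females. By the test *Mcpt2* was higher in BXD than in other inbred females (log2FC 2.95, SE 0.96, adjusted p = 0.0323, beside 7.46% of all genes called higher there, or 2.6% without BXD34/TyJ and BXD69/RwwJ), a call lost with DESeq2 (adjusted p = 0.10). In males the log2FC was 1.98 (adjusted p = 0.166). The F test over families gave 0.000653 in females and 0.0218 in males. *Ctsg*, the cathepsin G gene of the same cluster, was low, with medians of 0.240 TPM in females and 0.161 TPM in males and maxima of 3.18 and 3.84 TPM. It was higher in BXD than in other inbred females (log2FC 1.87, SE 0.54, adjusted p = 0.0155), and in males the log2FC was 0.18 (adjusted p = 0.881). Its F test over families gave 0.00642 in females and 0.0172 in males, calls that were lost with limma on log2(TPM + 1) (0.0982 and 0.107). The other mucosal protease genes, *Mcpt1* and *Mcpt9*, never exceeded 0.444 and 0.502 TPM. Of the 31-base words of *Mcpt2* transcripts in the reference genome, 5.14% also occur in reference transcripts of other genes. The reference strain itself held almost no *Mcpt2*, and the sequences of the strains that expressed it were not examined. Whether reads from those strains separate from those of *Mcpt4* was therefore not tested.

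*Tpsab1*, the tryptase gene next to *Tpsb2*, was lower in BXD than in other inbred strains in both sexes (4.96% of all genes in females and 5.82% in males were called lower), by a log2FC of −1.41 in females (SE 0.44, adjusted p = 0.0235) and −2.46 in males (SE 0.40, adjusted p = 6.43e-06). Its median was 0.443 against 0.833 TPM in females and 0.249 against 1.23 TPM in males. Low levels were not particular to BXD. The female and male medians were 0.221 and 0.134 TPM in AXB/BXA and 0.110 and 0.164 TPM in CXB. In the few BXH libraries they were 6.12 and 0.797 TPM. *Tpsb2* showed −0.08 (adjusted p = 0.873) and −0.34 (adjusted p = 0.415) in the same contrasts. C57BL/6J held 0.582 and 0.261 TPM of *Tpsab1* in the female and the male, DBA/2J held 0.178 and 1.34 TPM, and C3H/HeJ reached 7.85 and 5.10 TPM. The female call was lost with limma on log2(TPM + 1) (adjusted p = 0.0777). *Tpsb2* transcripts share 0.419% of the 31-base words of *Tpsab1*. All strains were quantified on the transcripts of 1 reference genome, that of C57BL/6J.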

How the data were processed

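RNA was extracted from whole iWAT with an RNeasy 96 kit, and stranded mRNA libraries (KAPA mRNA HyperPrep) were read as 100 bp pairs. The authors quantified reads with kallisto 0.46.1 on Ensembl 97 transcripts (mm10, GRCm38) and tximport turned transcript values into gene values. The deposited tables hold estimated counts, which were rounded to whole numbers for testing, and TPM, in which the authors scaled for transcript length and depth. Sex came from the sample characteristics and strain from the titles, with 1 library per strain and sex, so p-values measure only the spread between strains. Closely related strains, such as AXB19/PgnJ, AXB19a/PgnJ and AXB19b/PgnJ, were counted as separate strains. Counts were tested with edgeR 4.0.16 (quasi-likelihood, TMM, R 4.3.3) with strain and sex as terms over 59 matched strains, and between families within a sex. Genes were filtered with filterByExpr, and p-values were adjusted over all genes tested at a threshold of 0.05. Libraries of the same strain deviated together (mean correlation 0.405 against −0.007 between strains, over 0.1 in 44 of 59 pairs), and the shared strain name is the source of the pairing. Scores and correlations used log2(CPM + 0.5) and permutation tests (100000 resamples, two-sided). DESeq2 1.42.0, limma 3.58.1, other scalings and filters, and left-out libraries were alternatives. The scripts were tested on simulated data. The members and gene lists were chosen with earlier results of these data known. Genes are named as members of those lists, as the 15 most alike in pattern, or, for *Mcpt2*, *Tpsab1* and single strains, after their values were seen. A gene of these lists is not reported here.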

Additional observations from a re-analysis of the deposited data

Results flagged for a closer look

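The 9 mast cell genes were examined in the 9 female libraries of the AXB/BXA strains. By Dixon's test 2 genes had a single library far from the rest. For normally distributed values that test flags about 1 of 20 groups. It was run on TPM, which was skewed here (*Tph1* median 2.40, mean 6.02), so that rate does not hold. *Kit* stood at 60.8 TPM in AXB13/PgnJ, where the next library held 34.7, a gap of 0.560 of the whole range. The male AXB13/PgnJ library held 9.82 TPM. *Tph1* stood at 23.1 TPM in AXB19a/PgnJ, where the next, AXB19b/PgnJ, held 10.5 and AXB19/PgnJ 9.42, a gap of 0.558 of the range. These 3 names are closely related substrains, yet each was counted as a separate strain here and in the tests above. The protease gene *Cpa3* was also highest of the 9 in AXB19a/PgnJ, at 41.8 TPM.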

How the results depend on the processing

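Of 36 counts of mast cell genes called or correlated under an alternative, 33 stayed within 1.5 times of the reported value and 3 moved. Requiring at least 10 counts in every library left 6 genes that could be tested between the sexes, of which 5 were called. In BXD against other inbred females, 0 genes were called with limma on log2(TPM + 1), and 0 without SM/J, an alternative chosen after seeing the data. The fit with no replicate block, that is without pairing by strain, called 8 mast cell genes between the sexes, over the matched strains and over all libraries alike. Among single values 511 were unchanged in direction and call, 28 lost a call, 11 gained one and 23 changed sign, and each that changed sign was not called under either setting. For the difference in sex effect between BXD and other strains these were, with library totals, *Cma1* −0.0412, *Fcer1a* −0.0439 and *Hdc* −0.0279, and with limma on log2(TPM + 1) *Cpa3* −0.0616, *Cma1* −0.0722, *Tpsb2* −0.0499, *Fcer1a* −0.0261, *Ms4a2* −0.0354 and *Hdc* −0.0553. For BXD against other inbred females they were *Hdc* −0.0170 with library totals, and *Cpa3* −0.0358 and *Hdc* −0.0265 with limma. For males they were *Kit* 0.00046 with no filter, *Mcpt4* 0.0306, *Kit* 0.0542 and *Tph1* 0.0241 with limma, and *Mcpt4* 0.00053 and *Kit* 0.13 without NZW/LacJ. Between the sexes they were *Ndst2* −0.0159 without mitochondrially encoded genes and −0.0111 with no filter, and *Tpsab1* −0.0492 with no replicate block. For r between the sexes they were *Tph1* 0.0185 on log2(TPM + 0.1) and *Kit* −0.0596 in the strains outside BXD. The cause of these changes was not tested. Library totals moved the median log2FC of all genes between the sexes to 0.12. At 3 counts, *Fcer1a* and *Ms4a2* are near the floor in the shallower libraries.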

Other observations

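The single AXB/BXA library with *Mcpt2* was the male of BXA24/PgnJ, at 21.4 TPM beside 19.6 TPM of *Mcpt4*. The other 19 AXB/BXA libraries held at most 3 counts, and neither A/J library held any. BXD60/RwwJ had high *Hdc* in both sexes, 5.77 TPM in the female and 4.24 TPM in the male. In SM/J, *Tph1* was 94.2 TPM in the female and 0.0966 TPM in the male, and *Kit* was 88.7 and 7.04 TPM. Sequence shared with other genes was highest among the members for *Mcpt4* (12.2% of its 31-base words, mostly with *Cma2*) and *Cma1* (10.6%, with *Gm48934*), so their levels are less certain than those of *Cpa3*, *Kit* and *Fcer1a*, which share none.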
